A study of Canis lupus familiaris with 29 samples.

Results

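The 150 genes described here were, on average, at least 2-fold higher in canine B-cell than in T-cell lymphomas, yet in 1 or more T-cell tumours they reached the levels of B-cell tumours, and they differed widely from one T-cell tumour to the next. They were chosen by measured values. Expression is given as FPKM, fragments of a gene corrected for its length and for how many fragments the library had in all. Of 16382 Ensembl gene IDs in the deposited table, 11552 had 1 FPKM or more in 5 or more of 29 libraries and were tested. The mean log2(FPKM + 1) was at least 1 unit higher over the B-cell than over the T-cell libraries for 431 of them. In 383 of these the highest T-cell library was not below the lowest B-cell library, and the 150 with the largest SD over the T-cell libraries are the members. All 150 passed the filter on low values. The SD ran from 3.18 log2 units for the first member to 1.0096 and 1.0062 for the last 2, and the next 2 genes outside the set stood at 1.0051 and 1.0043, so the border between members and other genes is not a gap. The difference between phenotypes, the overlap and the spread over T-cell libraries are therefore properties of the choice and not findings.

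RNA sequencing libraries were made from 29 lymphomas of the golden retriever breed. The labels give a B-cell phenotype for 20 and a T-cell phenotype for 9. The B-cell dogs were 9 females and 11 males, aged 2.0 to 14.0 years, and 17 of the 20 were neutered. The T-cell dogs were 6 females and 3 males, aged 4.5 to 11.9 years, and 6 of the 9 were neutered. No treatment is given for either group, each group holds tumours only, and no healthy tissue was analysed here. The labels state neither how phenotype was assigned nor whether every library came from a different dog, so a p-value here reflects variation among libraries, which may be partly technical. The table names genes by Ensembl ID, and 0 of 16382 IDs could be paired with a symbol, so neither the roles of members nor the lineage markers of each phenotype could be read. For that reason 4 members are given by ID and the others as groups.

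B lymphocytes and T lymphocytes arise from separate lineages, each with its own antigen receptor and signalling genes, and lymphomas of either lineage retain much of the expression of the cell they came from. A lymph node holds both lineages, with B cells in follicles and T cells in the cortex around them. RNA from a whole tumour pools all its cells. In such bulk samples fewer cells of a type and less RNA per cell cannot be told apart.

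Summed FPKM ran from 319067 to 677096 over the libraries. The table holds no fragment counts, but in the lowest values 1 fragment of a gene is worth a fixed amount, and the most frequent ratio between libraries gave a depth for each, with B-cell library 1 as the unit. This relative depth was 0.930 to 2.21 over the B-cell libraries and 0.522, in T-cell library 5, to 1.72, in T-cell library 8, over the T-cell libraries. The depth of T-cell library 5 rested on 21 of the 66 genes compared, and that of the other T-cell libraries on 47 to 71 genes. For B-cell libraries 2 to 20 it rested on 44 to 101 genes. No counting interval is given, because the number of fragments behind a value is unknown.

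The 9 T-cell tumours held the members at very different levels. The mean log2(FPKM + 1) over the 150 members was 5.47 in T-cell library 3, 5.15 in library 2, 5.14 in library 1 and 5.03 in library 7. It was 4.40 in T-cell library 4. It was 3.60 in T-cell library 5, 3.57 in library 9, 3.31 in library 8 and 3.29 in library 6. The 20 B-cell libraries ran from 5.57 to 6.23 with a median of 6.01, so in this mean the T-cell and B-cell libraries did not overlap, and T-cell library 3 came closest. The spread was 0.891 (SD, n = 9) over T-cell and 0.198 (SD, n = 20) over B-cell libraries. With quantile normalization, median-of-ratios scaling or a pseudocount of 0.1, library 3 stayed highest and library 4 kept its place in the middle, while libraries 1 and 2 changed places. Libraries 6 and 8 changed places under both scalings, and libraries 5 and 9 under median-of-ratios scaling and the pseudocount of 0.1.

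**Figure D1:**
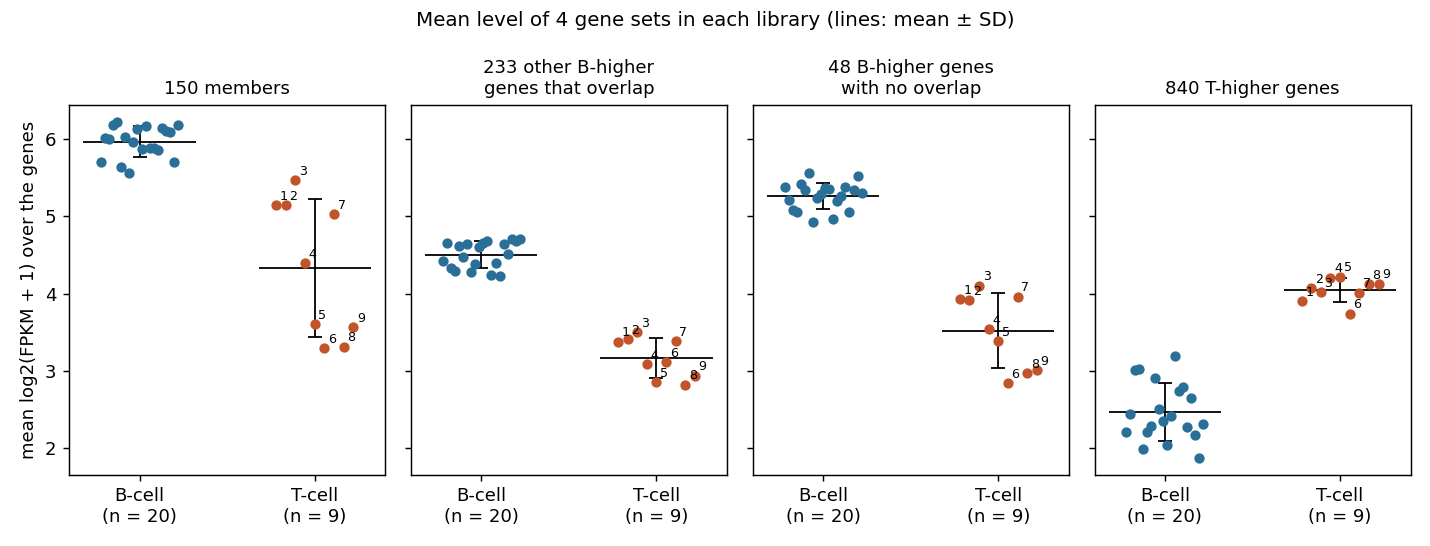
Mean log2(FPKM + 1) of 4 gene sets in each library, with B-cell libraries (n = 20) in blue, T-cell libraries (n = 9) in orange with their numbers, and lines for the mean ± SD. All 4 sets were chosen on these libraries. The members span 3.29 to 5.47 over T-cell libraries, and the 840 T-higher genes span 3.74 to 4.22.

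Counted gene by gene, the same libraries stood at the top. The number of members at or above the lowest B-cell library was 128 of 150 in T-cell library 3 (85.3%), 118 in library 2, 117 in library 1 and 110 in library 7. It was 72 in library 4, 54 in library 6, 51 in library 5, 44 in library 9 and 35 in library 8 (23.3%). The lower bound of this range rests on a single B-cell library per member. B-cell library 6 set it for 24 members, B-cell library 8 for 21 and B-cell library 19 for 15. With the second-lowest B-cell library as the limit the median over the T-cell libraries fell from 72 to 46 members, with 101 in library 3 and 25 in library 8. Reaching the middle of the B-cell range was rarer. Between 3 members, in T-cell library 9, and 28 members, in library 3, were at or above the B-cell median, and 80 of the 150 did not reach it in any T-cell library. The highest T-cell library lay above every B-cell library for 6 members, of which 5 had that value in library 6 and 1 in library 3. No share over all genes tested is given for these counts. Over all genes tested, the root-mean-square log2 distance from the B-cell mean was 0.765 to 0.885 in T-cell libraries 1, 2, 3, 4 and 7. It was 0.955 to 1.21 in libraries 5, 6, 8 and 9. The order of libraries is therefore not read as particular to the members.

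**Figure D2:**
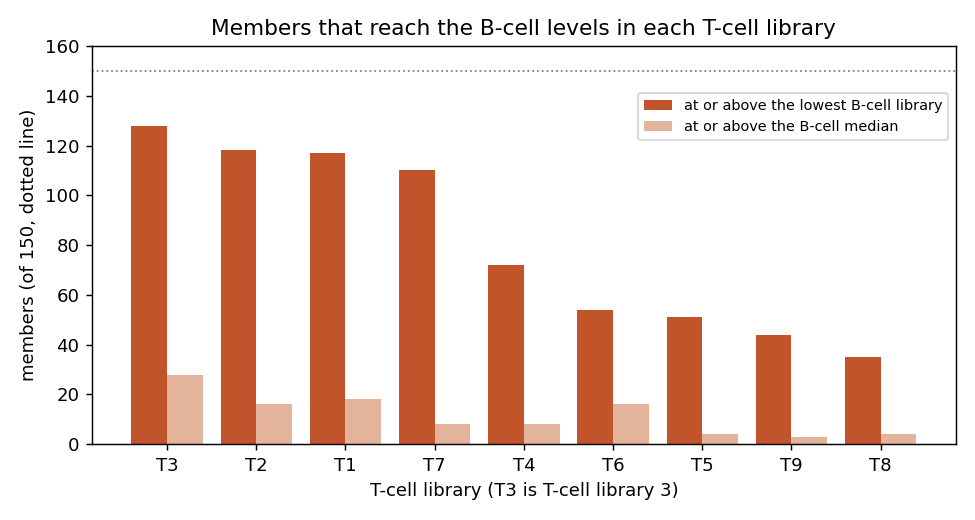
Number of members, of 150, that reach the lowest B-cell library (dark bars) or the B-cell median (light bars) in each T-cell library, ordered by the dark bars. The dark bars fall from 128 in library 3 to 35 in library 8, and the light bars from 28 to 3.

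Members differed in how many T-cell tumours carried them at B-cell levels. For 10 members a single T-cell library lay in the B-cell range, for 32 members 4 libraries did, and for 9 members all 9 did. The combination of libraries in range took 59 forms. The most frequent was libraries 1, 2, 3 and 7 together with no other, seen for 20 members. The next was libraries 1, 2, 3, 4, 5 and 7, for 10 members. Members in range in 7 to 9 T-cell libraries (31 genes) had a median SD of 1.07 log2 units among B-cell tumours. The median was 0.51 for the 35 members in range in 1 to 3 libraries. A low value in a single B-cell tumour is enough to widen the B-cell range of a gene. The 2 measures are therefore not independent, and nothing is read from this difference.

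**Figure D3:**
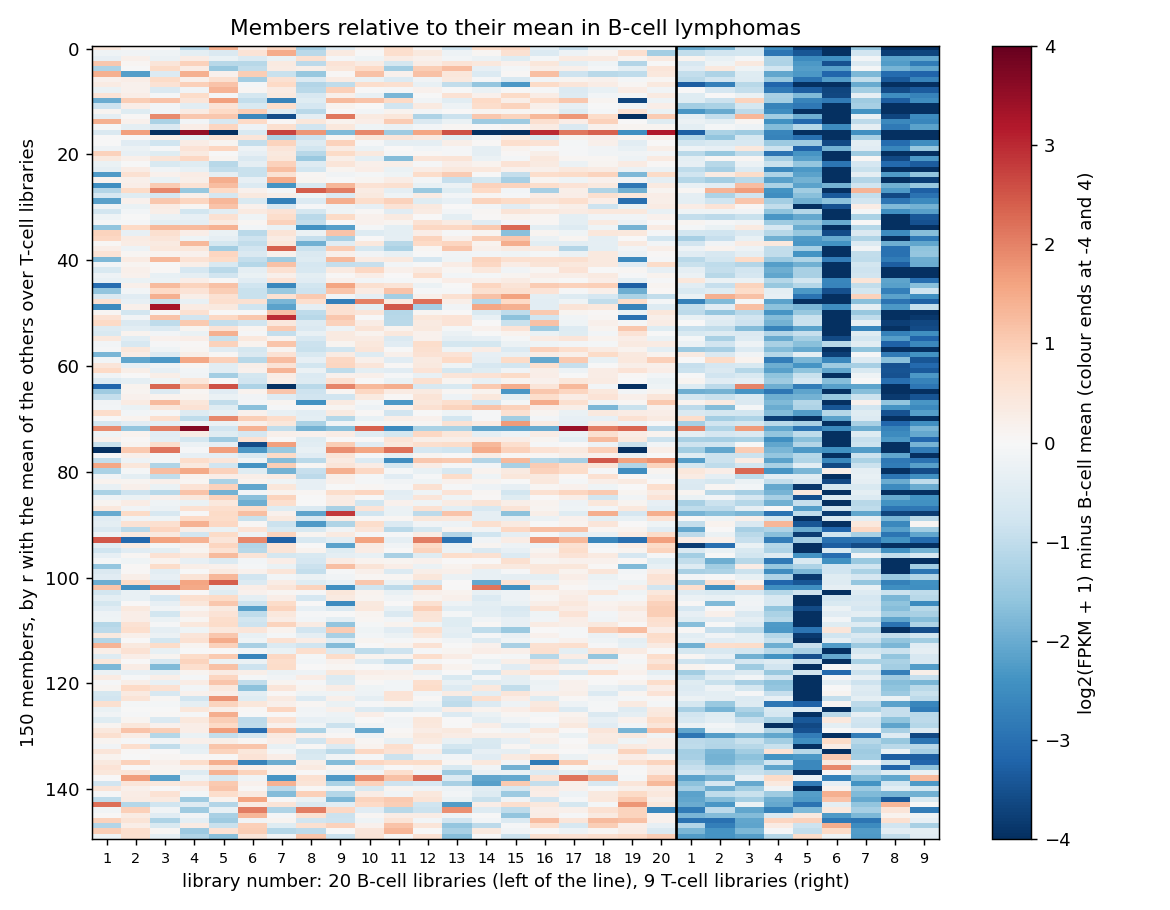
Each row is a member and each column a library. Colour gives log2(FPKM + 1) minus the member's B-cell mean, and rows are ordered by their correlation with the mean of the other members over the T-cell libraries, the highest at the top. Blue is deepest in T-cell libraries 5, 6, 8 and 9. The lowest rows are the 12 members with a correlation under 0.

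The members also varied among B-cell tumours. The rule used each gene's lowest B-cell value in the overlap, so this spread is a description and not independent of the choice. The SD of log2(FPKM + 1) over the 20 B-cell libraries had a median of 0.612 over the members. It was 0.526 over the 233 other overlapping B-higher genes, 0.389 over the 48 without overlap and 0.391 over all genes tested. It was above 0.391 for 135 of the 150 members, and above 1 for 29 of them. The spread was larger over T-cell than over B-cell libraries for 88.7% of members, where the rule asked for a wide T-cell spread, and for 70.0% of all genes tested. From its lowest to its highest T-cell library a member changed by a median of 15.9-fold in FPKM + 1, from 6.07-fold to 414.4-fold. The lowest T-cell library was at 0 FPKM for 21 members, and the lowest B-cell library for 1.

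How far members moved together over the T-cell libraries was read from the same 9 values whose SD and highest value chose them, so it is a description that leans on that choice. The Pearson correlation of a member with the mean of the other members over the 9 T-cell libraries had a median of 0.740, from -0.875 to 0.980. It was over 0.5 for 109 of 150 members (72.7%), over 0.9 for 20 and under 0 for 12. Among the 11397 other genes tested with any spread over the T-cell libraries, the correlation with the member mean had a median of 0.083, and 23.1% were over 0.5. Over the 20 B-cell libraries the median was 0.284, with 29 over 0.5 and 28 under 0. The rule did not rank on spread there, but its overlap step used each gene's lowest B-cell value. The first principal component held 57.3% of the members' variance over T-cell libraries and 24.8% over B-cell libraries. For all genes tested these shares were 34.8% and 27.1%. The 2 phenotypes differ in the number of points and in how the genes were chosen, so their values are not compared.

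**Figure D4:**
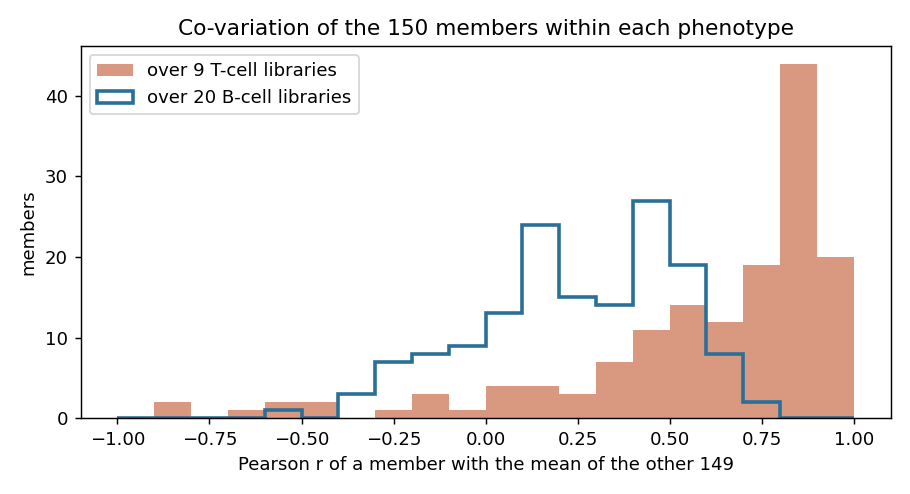
Distribution of the Pearson r between a member and the mean of the other members, over T-cell libraries (filled) and over B-cell libraries (line). The T-cell values gather near 0.740, their median, and the B-cell values around 0.284.

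Most members had their lowest T-cell value in library 6, 5 or 8. Library 6 was the lowest T-cell library for 68 members and library 5 for 39, with library 8 lowest for 26. The 68 members lowest in library 6 averaged 1.07 there on the log2(FPKM + 1) scale and 3.85 in library 5, both under the 5.61 of the B-cell libraries. The 39 members lowest in library 5 averaged 3.35 there, against 6.56 in library 6 and 7.30 over the B-cell libraries. Library 6 was also the highest T-cell library for 21 members. Library 3 was the highest for 50, library 1 for 26 and library 2 for 23. The 21 members highest in library 6 averaged 6.54 there, 2.95 in library 5 and 6.11 over the B-cell libraries. Each of these subsets was picked on the values given. Members listed at 0 numbered 13 in library 6 and 8 in library 5, and 0 or 1 in each other T-cell library. Members under 1 FPKM numbered 47 in library 6 and 2 in library 3.

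Members were abundant genes, with a median of the B-cell mean of 50.6 FPKM against 13.3 FPKM over all genes tested, and 144 of 150 averaged at least 10 FPKM. The median was 35.8 FPKM over the 48 B-higher genes without overlap and 19.1 FPKM over the 233 other overlapping ones. With a pseudocount of 1, low genes can hardly reach the difference and the spread that the rule asked for. The abundance thus leans on the choice. In T-cell library 5 the 50 members with the highest B-cell means, from 105.04 to 3804 FPKM, lay 3.12 log2 units below their B-cell mean on average. The 50 members with the lowest B-cell means, from 6.86 to 32.7 FPKM, lay 1.83 below in that library. Against the B-cell mean, the highest and the lowest 50 averaged -2.91 and -2.18 in library 6 and -2.89 and -2.37 in library 8. They averaged -2.68 and -2.05 in library 9 and -1.80 and -1.39 in library 4. In libraries 1, 2, 3 and 7 the highest 50 lay nearer their B-cell mean than the lowest 50. Values stop at 0 FPKM, which limits how far genes with low B-cell means can fall. The part of that limit in these averages was not tested. Of the highest 50, 8 reached the B-cell range in library 5, and of the lowest 50, 23 did. The counts for the highest and the lowest 50 were 21 and 29 in library 4, 10 and 16 in library 8, and 11 and 20 in library 9. They were 21 and 18 in library 6, 43 and 39 in library 3, 36 and 33 in library 7, 39 and 38 in library 2, and 38 and 38 in library 1. No difference between these averages or between these counts was tested. Library 5 was the shallowest library and library 8 the deepest T-cell library, and the part of depth in these counts was not tested.

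As a share of all FPKM, the members had a mean of 6.86% ± 1.01 (SD, n = 20) in B-cell tumours. In T-cell tumours the mean was 3.23% ± 1.20 (SD, n = 9). T-cell library 5 had the lowest share, 1.22%, and library 1 the highest of the T-cell libraries, 4.50%, while B-cell libraries held 5.05% to 8.56%. It did not follow the mean log level throughout. T-cell library 6, lowest in mean log level, had 3.49% of its FPKM in members, more than library 4 at 2.67%. The 10 most abundant members held 72.2% of the members' FPKM in library 9, 71.4% in library 6, 66.8% in library 8 and 40.4% in library 5, against 50.9% to 63.7% in B-cell libraries. Library 9 had 2.36% of its FPKM in members, so a high concentration was seen beside both a low and a higher share.

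ENSCAFG00000014130 had the largest difference between phenotypes among the genes higher in B-cell tumours. It stood at 115.8 FPKM in T-cell library 3, 60.7 in library 7, 36.9 in library 2, 26.8 in library 4 and 24.8 in library 1. It stood at 2.88 FPKM in T-cell library 8, 1.20 in library 5 and 0.501 in library 9, and was listed at 0 in library 6. The B-cell libraries ran from 49.8 to 549.3 FPKM with a median of 312.8. Libraries 3 and 7 thus lay inside the B-cell range, well under its median, while 4 libraries were under 3 FPKM. Its correlation with the other members was 0.942 over T-cell and 0.476 over B-cell libraries. T-cell libraries lay below B-cell libraries by 4.51 ± 0.60 log2 units (SE), a contrast used to choose it.

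ENSCAFG00000014395 varied widely among B-cell tumours as well as between phenotypes. Over the B-cell libraries it ran from 3.17 to 2024 FPKM with a median of 534.2, and its SD of 3.03 log2 units there was the highest of all genes tested. Over the T-cell libraries it stood at 71.8 FPKM in library 2, 63.8 in library 3, 30.8 in library 7, 27.9 in library 4 and 17.1 in library 1. It stood at 8.05 FPKM in library 5, 5.14 in library 9, 0.791 in library 6 and 0.602 in library 8. Because of its low B-cell libraries, 7 of the 9 T-cell libraries were in the B-cell range and 0 reached the B-cell median. T-cell libraries lay below B-cell libraries by 3.73 log2 units on average, a contrast used to choose it. Its correlation with the other members was 0.909 over T-cell libraries and 0.201 over B-cell libraries.

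ENSCAFG00000018519 and ENSCAFG00000010739 had the highest and the lowest correlation with the other members over the T-cell libraries, at 0.980 and -0.875. ENSCAFG00000018519 stood at 20.8 FPKM in T-cell library 3, 11.8 in library 7, 9.57 in library 2, 8.29 in library 1 and 5.53 in library 4. It lay between 0.952 and 1.80 FPKM in libraries 5, 6, 8 and 9. Only library 3 reached its B-cell range of 13.5 to 100.5 FPKM. Over the B-cell libraries its correlation with the other members was 0.046. ENSCAFG00000010739 ran the other way. It stood at 11.98 FPKM in T-cell library 5, 6.0047 in library 6, 4.67 in library 9, 2.94 in library 8 and 2.54 in library 4. It lay between 0.513 and 0.704 FPKM in libraries 1, 2, 3 and 7, below its B-cell range of 1.39 to 15.7 FPKM. The 12 members with a correlation under 0 averaged 3.46 on the log2 scale in library 6 and 1.73 in library 1, against 3.74 over the B-cell libraries.

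**Figure D5:**
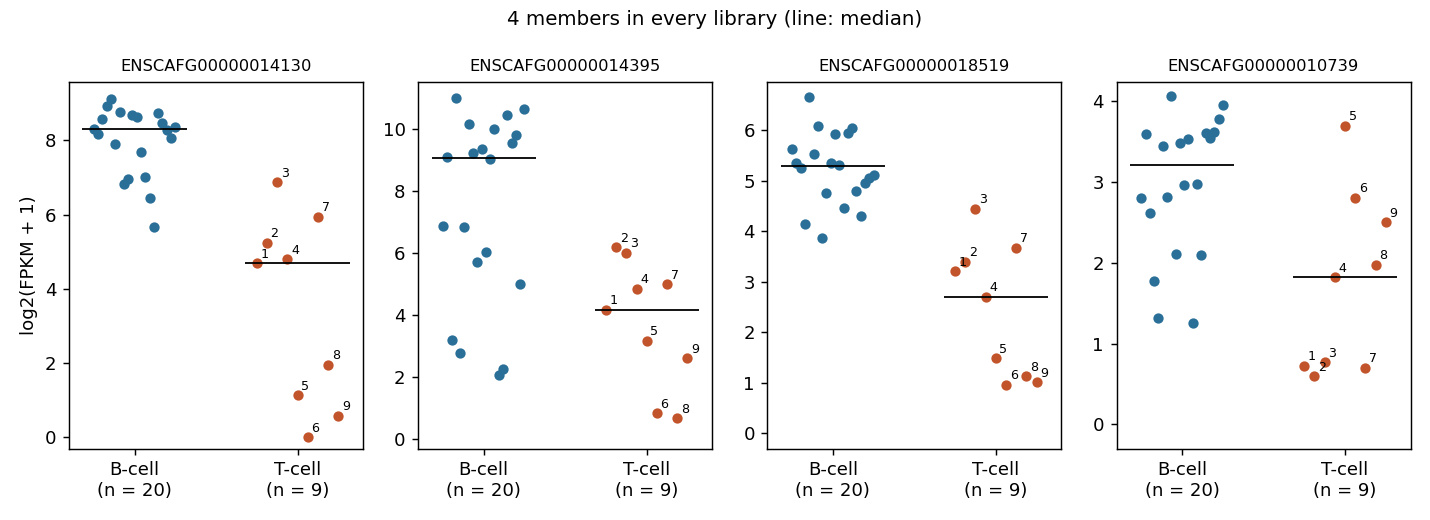
log2(FPKM + 1) of 4 members in every library, B-cell in blue and T-cell in orange with library numbers, with a line at the median. ENSCAFG00000014130, ENSCAFG00000014395 and ENSCAFG00000018519 are lowest in T-cell libraries 5, 6, 8 and 9, and ENSCAFG00000010739 is lowest in libraries 1, 2, 3 and 7.

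Other genes higher in B-cell tumours were set beside the members. The 233 genes that passed the difference and the overlap but had a smaller SD over T-cell libraries averaged 2.82 to 3.50 on the log2 scale over T-cell and 4.23 to 4.71 over B-cell libraries. Their 4 highest T-cell libraries were also libraries 1, 2, 3 and 7. The 48 genes whose T-cell libraries all lay below all B-cell libraries averaged 2.84 in T-cell library 6 to 4.10 in library 3. Of these 48, 32 correlated with the member mean over T-cell libraries at over 0.5 (66.7%), as did 107 of 232 of the other overlapping genes (46.1%) and 174 of 840 genes (20.7%) whose mean was 1 log2 unit or more higher in T-cell tumours. The T-higher genes averaged 3.74 in T-cell library 6 and 4.22 in library 5, their highest, so library 6 was the lowest T-cell library for both the members and the T-higher genes. It was also the lowest over all genes tested, at 3.70 in a T-cell range that reached 3.93. All these sets were chosen on these libraries, and no difference between them was tested.

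In the limma fit across all genes tested, with p adjusted by the Benjamini-Hochberg method and a threshold of 0.05, 138 of 150 members were called as higher in B-cell tumours, where 16.8% of all genes were. The rule used this contrast, so nothing is read from that count. A hyphen stands in the phenotype label of 8 B-cell and 2 T-cell libraries, and the other labels have a space. Within the libraries spelled with a space 118 members were called, where 11.7% of all genes were. Within those with a hyphen, whose T-cell libraries are 2 and 4 alone, 30 were, where 1.33% of all genes were. The median difference of all genes, T-cell minus B-cell, was 0.09 log2 units as deposited and -0.02 with quantile normalization. Relative to that shift, the members' median was -1.54 as deposited and -1.46 after that normalization. With limma's array weights the members' median was -0.998 without that correction, and 2 of the 150 no longer lay lower in T-cell tumours.

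Sex, neuter status, age and label spelling were not used by the rule, and limma called 0 members for each of them over all 29 libraries. For sex, fitted beside phenotype and neuter status, 0.00866% of all genes were called. At an unadjusted p under 0.05 there were 15 members (10%), 14 of them higher in females, against 10.9% of all genes. For neuter status 0% of all genes were called, and 13 members (8.67%) passed the unadjusted threshold, against 11% of all genes. For label spelling 0% of all genes were called, and 1 member passed the unadjusted threshold, against 6.74%. These shares were near or under the background. The 95% interval of a member's log2 difference reached a median of 0.68 units to either side for sex and 0.84 for neuter status. These intervals are not adjusted for the number of genes, as the calls are, so differences of that size and larger could be missed.

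Age was set beside the member level of each T-cell library. In falling order of that level, libraries 3, 2, 1 and 7 came from dogs of 9.9, 8.7, 9.8 and 11.9 years, and library 4 from a dog of 10.3 years. Libraries 5, 9, 8 and 6, the last in that order, came from dogs of 4.5, 6.3, 8.5 and 9.4 years. Over all 29 libraries limma called 0 members and 0% of all genes for age, and 9 members (6.0%) passed an unadjusted p under 0.05, against 5.02% of all genes. Among the 9 T-cell libraries alone, age was fitted without sex or neuter status, a fit chosen after the data were seen. There limma again called 0 members, with a lowest adjusted p of 0.297. At an unadjusted p under 0.05 it gave 41 members (27.3%), of which 39 rose with age, against 14.1% of all genes. Without T-cell library 5, from the youngest dog, 15 members (10%) passed, against 3.77% of all genes. The members' median slope was 0.24 log2 units per year with that library and 0.31 without it. Members moved together over these libraries and were ranked by their spread over them, so the 41 are not separate results. Nothing is read from their share beside that of all genes.

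Within T-cell libraries alone the other labels gave few members. At an unadjusted p under 0.05 there were 5 for sex (3.33%), against 3.57% of all genes, and 4 for neuter status (2.67%), against 6.13%. For label spelling there was 1 member, against 2.43% of all genes. The adjusted threshold called 0 members in each of these fits. Because the spread over these libraries ranked the members, the shares are descriptions.

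Whether the difference between phenotypes depended on sex was tested with an interaction term. limma called 0 members and 0% of all genes, and 12 members (8.0%) passed an unadjusted p under 0.05, against 8.87% of all genes. This rested on 3 males with T-cell tumours. Without T-cell library 7, a male with 110 members in the B-cell range, 16 members were called, all with a smaller deficit in females, and 2.83% of all genes were. The males that remained then were T-cell libraries 5 and 9, with 51 and 44 members in range. Members moved together over the T-cell libraries and were ranked by their spread over them. The 16 are therefore not separate results, and nothing is read from their number beside the share of all genes.

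Relative depth was also entered beside phenotype, after the data were seen. limma called 0 members and 0.00866% of all genes. At an unadjusted p under 0.05 there were 37 members (24.7%), against 9.76% of all genes, 19 of them higher and 18 lower with depth. Without T-cell library 5, 5 were higher and 31 lower, against 9.49% of all genes in either direction. Among T-cell libraries alone there were 26 members (17.3%), 23 of them higher and 3 lower with depth, against 19% of all genes. The split by direction thus differed between these fits. All these fits hold T-cell libraries, whose spread ranked the members, and members moved together over them. The members that passed are therefore not separate results. Their shares are descriptions, and nothing is read from them beside those of all genes. In falling order of member level, the T-cell libraries had relative depths of 1.10 (library 3), 1.26 (library 2), 1.03 (library 1), 1.53 (library 7) and 1.15 (library 4). The rest had 0.522 (library 5), 1.25 (library 9), 1.72 (library 8) and 1.62 (library 6). The part of depth in the levels was not tested beyond these fits.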

How the data were processed

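RNA came from a Qiagen extraction and was prepared for sequencing by TruSeq, per the labels' protocols. The submitters' processing notes name FastQC 0.11.2, TopHat 1.4.1, Cuffdiff and the build CanFam3.1. Their options and order, the annotation release and any scaling are not stated there. The authors deposited FPKM per Ensembl gene. Of 78 value columns 29 carry a sample title and were used, and 49 were not. In its usual definition FPKM divides by the library total, so abundant genes lower all others. Whether these values were scaled in another way is not known.

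The members and the planned lists and tests were chosen with earlier results of these data known. Library numbers follow accession order inside each phenotype and pair nothing. Values were analysed as log2(FPKM + 1), a pseudocount of 1, which understates differences of low genes. limma 3.58.1 in R 4.3.3 was fitted on all 11552 genes with a variance trend and robust moderation, both directions, adjusted by Benjamini-Hochberg over all of them. Over all 29 libraries age was fitted with phenotype, sex and neuter status. Within T-cell libraries alone, age, sex, neuter status, label spelling and depth were each fitted with no other term. Scripts were tested on simulated data. Relative depth was read from FPKM under 0.1, with a tolerance of 0.02 log2 units. Alternatives were 2 scalings, a pseudocount of 0.1, no filter on low values, array weights, and each T-cell library left out. Without symbols, the rule for named genes took the 2 IDs given with the set and the members with the highest and lowest correlation with the others. The 12 planned gene lists could not be tested. Python 3.11.15, numpy 2.4.6, pandas 2.3.3 and matplotlib 3.10.9 were used.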

Additional observations from a re-analysis of the deposited data

Results flagged for a closer look

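Of 16 measures tested over the 9 T-cell libraries with Dixon's gap, 2 had a library that stood apart. The limit is meant to single out about 1 in 20 by chance. On the log2(FPKM + 1) scale, however, 15.9% of all genes tested with any range over these libraries passed it. The measures are also not independent, because each named gene entered both as FPKM and on the log2 scale. The 2 are therefore not read as more than chance would give. T-cell library 3 was the highest T-cell library for 50 members, and the next, library 1, for 26. ENSCAFG00000010739 stood at 11.98 FPKM in T-cell library 5 and at 6.0047 FPKM in the next, library 6. On the log2(FPKM + 1) scale the same library did not stand apart for this gene. Over the members one at a time on that scale, 28 of 150 (18.7%) had a library apart, against 15.9% of all genes tested with any range over these libraries. In 17 of them this was library 5 on the low side, in 6 library 6 on the low side and in 3 library 6 on the high side. The members were chosen for a wide spread over these libraries.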

How the results depend on the processing

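The order of T-cell libraries by member level depended little on scaling, but membership depended on the pseudocount. When the rule was applied again, a pseudocount of 0.1 kept 78 of 150 members. The other alternatives kept more, with each T-cell library left out 107 to 140. Members called between phenotypes numbered 30 in the libraries labelled with a hyphen, which are fewer, and 131 to 144 with each T-cell library left out. Members called for sex, neuter status, age and label spelling were 0 in all 15 alternatives of each. For the interaction with sex they were 0 to 16 with each T-cell library left out, and 16 only without T-cell library 7. For relative depth, quantile normalization gave 1. For that 1 and for the 131 to 144, the share of all genes called is not given, so nothing is read from them. The range of member level over T-cell libraries was 2.18 log2 units and 1.85 to 2.18 with each library left out. The median correlation of members was 0.709 to 0.823, highest without library 5, and the first component held 54.9% to 69.0%. The members' median SD over B-cell libraries was 0.612, 0.596 with quantile normalization, 0.627 with median-of-ratios scaling and 0.631 with a pseudocount of 0.1. ENSCAFG00000014395 and ENSCAFG00000010739 did not pass in the libraries labelled with a hyphen (limma adjusted p = 0.692 and 0.153). The directions of the 4 IDs between phenotypes held in all 16 alternatives. The rule had asked for that direction in these same libraries, so nothing is read from it. The cause of these changes was not tested. Without fragment counts, members near 0 FPKM have no known precision. No paired analysis was possible because library numbers only name libraries.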
